A study of Homo sapiens with 6 samples.

Results

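Histone deacetylases remove acetyl groups from lysines of histones and other proteins, and acetyltransferases such as p300, the product of EP300, add them. The zinc-dependent deacetylases are sorted by sequence into class I, which works mainly in nuclear corepressor complexes, class IIa, which shuttles between nucleus and cytoplasm, class IIb, which holds enzymes with substrates outside chromatin, and class IV, whose only member is HDAC11. In breast cancer cells these enzymes are known as regulators of cell cycle, differentiation and stress genes, and inhibitors of class I and II enzymes are used as drugs. The genes described here were every row of the deposited table whose symbol starts with HDAC, together with EP300, which gave 7 of 758 genes. The 6 deacetylase genes were HDAC1 and HDAC2 (class I), HDAC5 (class IIa), HDAC6 and HDAC10 (class IIb) and HDAC11 (class IV). No other symbol in the table starts with HDAC. Class I is thus without HDAC3 and HDAC8, and class IIa without HDAC4, HDAC7 and HDAC9, so comparisons of classes cover these genes only in part.

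The RNA came from JIMT-1, an established HER2+ breast cancer cell line derived from a tumour that no longer responded to trastuzumab. Cells were given PBS (CTL, n = 3) or 250 µM aCT1 (n = 3) for 24 h. The aCT1 peptide is a biotinylated mimetic of the gap junction protein connexin 43, made from its tail end and fused to antennapedia for entry into cells. Both groups were of the same line with no other agent named in the labels, and results from 1 line describe that line. Nothing in the labels says whether the 3 samples of a group were separate cultures, so p-values measure the spread between these samples, which may be technical. RNA was counted on the nCounter Breast Cancer 360 panel, in which 1 barcoded probe reports each gene, and totals ran from 1437572 to 1494919 counts per sample. Of the markers of HER2+ cells, ERBB2 had 9316 ± 239 normalized counts in CTL and 9480 ± 493 in aCT1 (SD, n = 3), and GRB7, its neighbour in the amplified region, had 9849 ± 539 and 10120 ± 923 (SD, n = 3). Of the hormone receptor genes, ESR1 had means of 115 and 132 normalized counts and PGR of 21.2 and 21.5. Of 15 markers of immune, endothelial and fibroblast cells, 9 were in the table, and their means in either group were between 3.35 (CD163) and 72.2 (PECAM1) normalized counts.

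Both groups were set against each other with limma on log2 normalized counts, over the genes for which the study lists statistics. This left out 299 of the 758 genes, all with few counts, and each of the 7 genes described here was among those tested. Probes differ in efficiency, so levels are compared between groups and not between genes. Because whole-culture RNA was measured, more cells with a transcript and more transcript per cell cannot be told apart. No gene tested had an adjusted limma p under 0.05 (0%), so neither EP300 nor any deacetylase passed the test after Benjamini-Hochberg adjustment. At an unadjusted p under 0.05 there were 52 genes (11.3% of those tested), of which 36 were higher in aCT1 (7.84%) and 16 lower (3.49%). The share of higher genes among those under 0.05 was 69.2% in this fit and 55.8% with median centring. It was 48.5% with quantile normalization, 46.0% with DESeq2 and 48.6% without aCT1 replicate 2. The directions of HDAC6, HDAC10, HDAC11 and EP300 were as given here under each of these settings. Only HDAC10 also kept an unadjusted p under 0.05 in each of them. HDAC6, HDAC10, HDAC11 and EP300 were among the 36, or 4 of the 7 genes. These 4 were singled out with earlier results of the same samples known, so the count describes them and is not independent evidence. The 7 genes had a median log2 fold change of 0.16, and 5 of them were higher in aCT1. All genes tested had a median of 0.014, with 277 higher and 182 lower. The median of the 7 includes the genes singled out with results known, so it is likewise not independent evidence of a shift. The remaining genes, HDAC1, HDAC2 and HDAC5, had log2 fold changes of -0.024, -0.0056 and 0.16. With 7 genes, the number higher is too small to tell from the share over all genes tested.

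**Figure D1:**
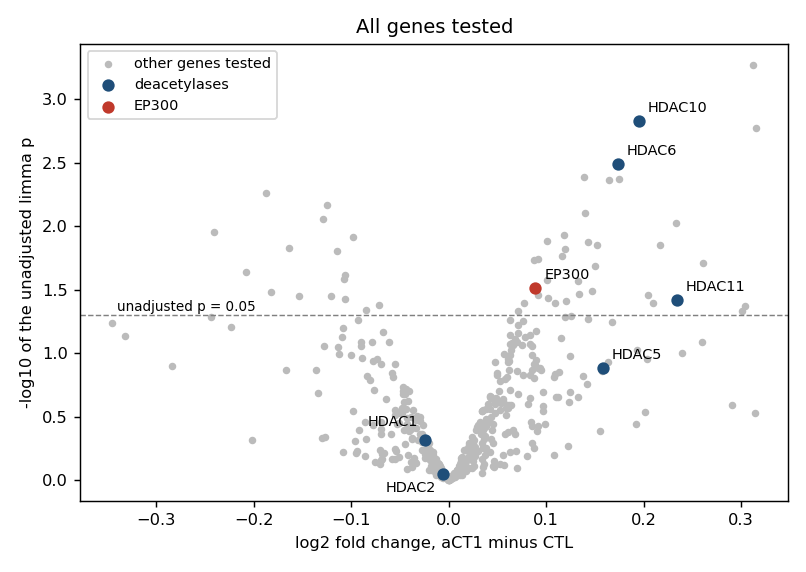
Each point is a gene tested, with the log2 fold change of aCT1 over CTL on the x axis and -log10 of the unadjusted limma p on the y axis. HDAC10 and HDAC6 lie near the top of the right arm, EP300 and HDAC11 lie just above the dashed line at an unadjusted p of 0.05, HDAC5 lies below it, and HDAC1 and HDAC2 lie near the origin.

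The class I enzymes HDAC1 and HDAC2 are close relatives that form the catalytic core of the SIN3, NuRD and CoREST corepressor complexes. HDAC1 had 5869, 5931 and 5689 normalized counts in CTL replicates 1 to 3 and 5871, 5679 and 5649 in aCT1 replicates 1 to 3. The groups overlapped, and the difference of -1.66% had a 95% interval from -6.93% to 3.92% (log2 fold change -0.024, standard error 0.033, limma adjusted p = 0.825). HDAC2 had 3129, 3196 and 3035 normalized counts in CTL and 3050, 3044 and 3233 in aCT1. Its groups overlapped too, with aCT1 replicate 3 the highest of all samples, and the difference was -0.385% with a 95% interval from -6.68% to 6.33% (limma adjusted p = 0.975). For both class I genes the difference between groups was smaller than the SD within a group.

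**Figure D2:**
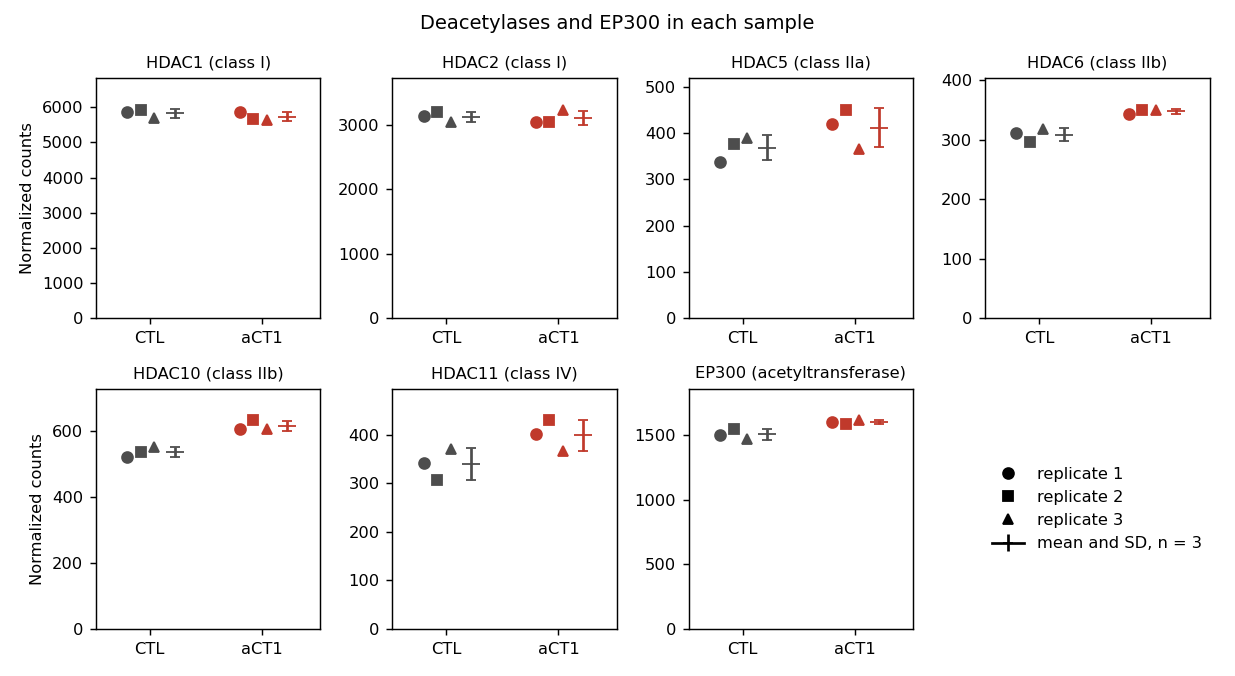
Normalized counts on the y axis, from 0, for each deacetylase gene and EP300 in the 3 CTL and 3 aCT1 samples; marker shapes give the replicate number and bars the mean and SD. HDAC6, HDAC10 and EP300 show every aCT1 sample above every CTL sample, and the other genes overlap.

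Class IIb comprises HDAC6, a mainly cytoplasmic enzyme that deacetylates tubulin, HSP90 and cortactin, and HDAC10, which deacetylates polyamines. HDAC10 had 522, 534 and 551 normalized counts in CTL and 604, 631 and 605 in aCT1. Every aCT1 sample was above every CTL sample, with group means of 536 ± 14.7 and 613 ± 15.3 (SD, n = 3). HDAC10 differed by 14.5%, with a 95% interval from 7.78% to 21.6% (log2 fold change 0.20, standard error 0.036). Its unadjusted limma p of 0.00148 was the second smallest of all genes tested, and its adjusted limma p was 0.257. It kept an unadjusted p under 0.05 under each of 12 other settings and in each of 6 fits that left out 1 sample, with log2 fold changes from 0.17 to 0.22.

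HDAC6 had 312, 296 and 319 normalized counts in CTL and 343, 351 and 351 in aCT1. Again the groups did not overlap, and the aCT1 samples lay closer together than the CTL samples. The means were 309 ± 11.6 in CTL and 348 ± 4.19 in aCT1 (SD, n = 3). HDAC6 differed by 12.8%, with a 95% interval from 5.91% to 20.03% (log2 fold change 0.17, standard error 0.037), and its limma adjusted p was 0.283. Its unadjusted limma p of 0.00327 became 0.0195 with edgeR's quasi-likelihood test on recovered counts and 0.107 with DESeq2, which ended the call at 0.05. Of the genes listed as cytosolic substrates and partners of HDAC6, 1 of 12 was in the table, the tubulin gene TUBA4A, with 2877 ± 37.2 normalized counts in CTL and 2790 ± 56.8 in aCT1 (SD, n = 3) and a limma adjusted p of 0.628.

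HDAC11, the class IV enzyme and a remover of long fatty acyl groups from lysine, had the largest fold change of the 7 genes and a wide spread. It had 342, 306 and 371 normalized counts in CTL and 402, 429 and 366 in aCT1. The groups overlapped, since aCT1 replicate 3 lay below CTL replicate 3. HDAC11 differed by 17.6%, with a 95% interval from 1.25% to 36.6% (log2 fold change 0.23, standard error 0.089), and the limma adjusted p was 0.394. The unadjusted limma p of 0.0379 went over 0.05 when any of 4 samples was left out (0.0695 without CTL replicate 1, 0.103 without CTL replicate 2, 0.0934 without aCT1 replicate 1 and 0.109 without aCT1 replicate 2), and it was 0.0863 when the replicate number was a block.

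The class IIa enzyme HDAC5, a signal-dependent corepressor of MEF2 factors, had 338, 377 and 390 normalized counts in CTL and 418, 450 and 366 in aCT1. As with HDAC11, aCT1 replicate 3 lay within the CTL range. HDAC5 differed by 11.6%, with a 95% interval from -4.32% to 30.1% (log2 fold change 0.16, standard error 0.091), and the limma adjusted p was 0.520. Its unadjusted limma p of 0.132 became 0.0236 without aCT1 replicate 3, at a log2 fold change of 0.24. The interval holds both 0 and the estimates of HDAC6 and HDAC10, so these samples do not place HDAC5 with class I or with class IIb.

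**Figure D3:**
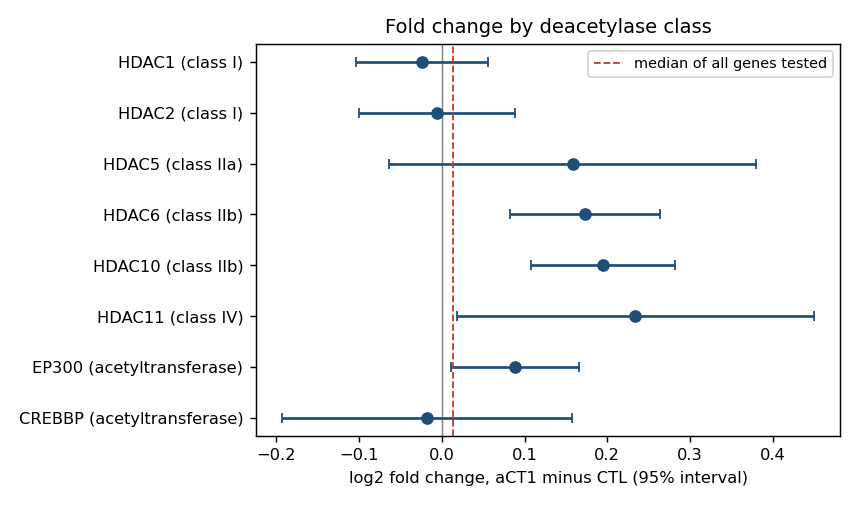
Log2 fold change of aCT1 over CTL with its 95% limma interval for each deacetylase gene, EP300 and CREBBP; the dashed line is the median of all genes tested, 0.014. The class I intervals are centred near 0, the class IIb and class IV intervals lie above 0, and that of HDAC5 spans 0.

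When the classes were set against each other within a sample, a step that does not depend on scaling between samples, the class II and IV genes stood higher relative to class I in aCT1 on average. The mean log2 value of HDAC5, HDAC6, HDAC10 and HDAC11 minus that of HDAC1 and HDAC2 was -3.53, -3.57 and -3.38 in the CTL samples and -3.29, -3.19 and -3.38 in the aCT1 samples. The group means were -3.49 ± 0.099 and -3.29 ± 0.094 (SD, n = 3), a difference of 0.20 on the log2 scale. CTL replicate 3 and aCT1 replicate 3 had nearly the same value, so the groups overlapped, and the other 2 aCT1 samples were above all CTL samples. Leaving out any 1 of the 4 class II and IV genes gave differences from 0.19 (without HDAC11) to 0.22 (without HDAC5). This score gets no p, since its genes were chosen with results known.

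Single ratios were tested with a two-sided exact permutation test, whose smallest p for 3 samples against 3 is 0.1, and 10 ratios were tested. HDAC10 over HDAC1 was 0.0889, 0.0901 and 0.0968 in CTL and 0.103, 0.111 and 0.107 in aCT1. HDAC6 over HDAC1 was 0.0532, 0.0499 and 0.0560 in CTL and 0.0585, 0.0618 and 0.0620 in aCT1. Both ratios separated the groups, by 16.4% and 14.7%, as did the ratios of HDAC10 and HDAC6 to HDAC2, by 14.9% and 13.2% (exact permutation p = 0.1 for each, adjusted p = 0.25). HDAC10 and HDAC6 also separated the groups by themselves, so these ratios largely restate the single genes. Of all genes tested, 12.4% had aCT1 above CTL without overlap, and the share for ratios was not computed. The ratios of HDAC11 to HDAC1 and HDAC2 were 19.6% and 18.1% higher with overlapping groups (exact permutation p = 0.2 for each), and those of HDAC5 were 13.5% and 12.02% higher (exact permutation p = 0.2 and 0.3). Some of these moved by over 1.5 times without 1 sample. On the log2 scale the difference in HDAC5 over HDAC1, 0.18, became 0.12 without CTL replicate 1 and 0.11 without aCT1 replicate 2. That in HDAC5 over HDAC2, 0.16, became 0.10 without CTL replicate 1, and it was 0.081 or 0.27 when aCT1 replicate 2 or 3 was left out. The log2 difference in HDAC11 over HDAC2, 0.24, became 0.15 without CTL replicate 2. HDAC1 over HDAC2, the ratio of both class I genes, differed by -1.28% (exact permutation p = 0.8). None of the 10 ratios could reach 0.05 in this design. Their genes were chosen with results known, so the p-values describe the ratios and are not independent evidence.

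**Figure D4:**
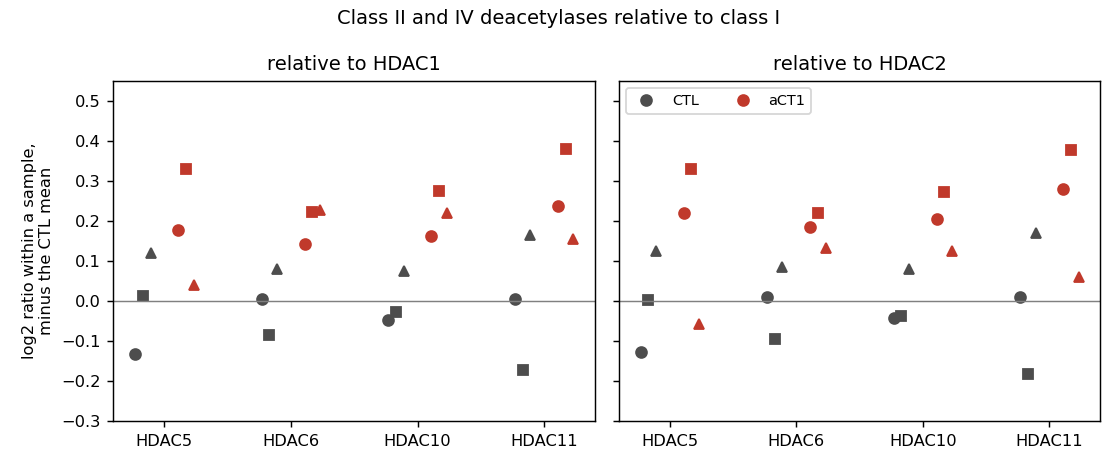
Log2 ratio of each class II or IV deacetylase to HDAC1 (left) or HDAC2 (right) in each sample, minus the CTL mean of that ratio; marker shapes give the replicate number. For HDAC6 and HDAC10 all 3 aCT1 samples lie above all 3 CTL samples, and for HDAC5 and HDAC11 aCT1 replicate 3 falls among the CTL samples.

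EP300 encodes p300, a coactivator that acetylates histone H3 and many transcription factors, and CREBBP encodes its paralogue CBP. EP300 had 1500.1, 1552 and 1473 normalized counts in CTL and 1604, 1590.4 and 1617 in aCT1. Every aCT1 sample was above every CTL sample, by a small margin between aCT1 replicate 2 and CTL replicate 2. The difference was 6.34%, with a 95% interval from 0.783% to 12.2% (log2 fold change 0.089, standard error 0.032), and the limma adjusted p was 0.394. The unadjusted limma p of 0.0310 was over 0.05 in 5 of the 6 fits without 1 sample, at 0.0881 without CTL replicate 1, 0.0843 without CTL replicate 3, and 0.0726, 0.0539 and 0.0853 without aCT1 replicates 1, 2 and 3. It was 0.0841 with the replicate block and 0.129 with DESeq2. CREBBP had 923, 823 and 764 normalized counts in CTL and 808, 812 and 852 in aCT1, a difference of -1.20% with a 95% interval from -12.5% to 11.5% (limma adjusted p = 0.946). The ratio of EP300 to CREBBP was 7.63% higher in aCT1 with overlapping groups (exact permutation p = 0.2, where 0.1 is the smallest possible). Its log2 difference of 0.11 became 0.029 without CTL replicate 1. The third acetyltransferase of the table, KAT2B (PCAF), had 179 ± 15.7 and 191 ± 13.8 normalized counts (SD, n = 3) and a limma adjusted p of 0.683.

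Groups did not overlap in 3 of the 7 genes, HDAC6, HDAC10 and EP300, each with aCT1 above CTL. Over all genes tested there was no overlap in 82 genes (17.9%), of which 57 had aCT1 above CTL (12.4%). The same 3 genes had an observed spread between replicates below their counting error. An SD from 3 samples per group is itself uncertain, and this difference was not tested. The pooled SD of log2 values within groups was 0.041 for HDAC6 against a counting error of 0.080 per sample, 0.038 for HDAC10 against 0.060, and 0.028 for EP300 against 0.037. HDAC1, HDAC2, HDAC5 and HDAC11 had SDs 1.62, 1.69, 1.80 and 1.70 times their counting error. A spread below the counting error was found in 133 of the genes tested (29.0%) and in 27 of the 52 genes with an unadjusted p under 0.05 (51.9%). Counting error alone gives the log2 fold change a standard error of 0.065 for HDAC6 and 0.049 for HDAC10, larger than limma's 0.037 and 0.036.

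**Figure D5:**
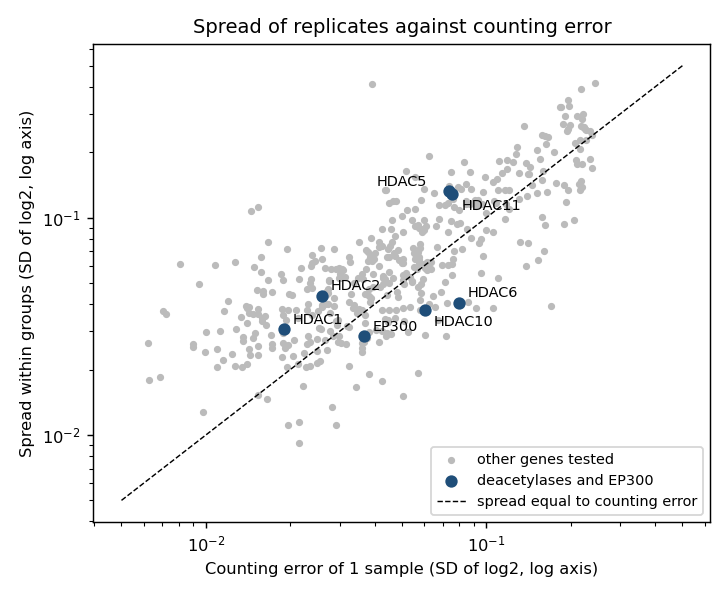
Pooled SD of log2 values within groups (y axis) against the counting error of 1 sample (x axis), both on log axes, for all genes tested; the dashed line marks equality. HDAC6, HDAC10 and EP300 lie below the line, at 0.509, 0.624 and 0.779 times their counting error, and HDAC1, HDAC2, HDAC5 and HDAC11 lie above it.

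Promoter sequence is shown for the 3 deacetylases with the smallest p-values and for HDAC2, a class I gene with a difference near 0, so that a reader can compare the genes at sequence level. A promoter was found for 6 of the 7 genes (not HDAC5) in the RefSeq table of GRCh38.p14. The 250 bases before the first listed start (HDAC6 has 3 listed) are printed 5′ to 3′ on the gene's strand, and capitals mark the GC box GGGCGG, the binding sequence of SP1-type factors, on either strand, where neighbouring matches may share a base.
HDAC10, chr22:50251266-50251515, minus strand: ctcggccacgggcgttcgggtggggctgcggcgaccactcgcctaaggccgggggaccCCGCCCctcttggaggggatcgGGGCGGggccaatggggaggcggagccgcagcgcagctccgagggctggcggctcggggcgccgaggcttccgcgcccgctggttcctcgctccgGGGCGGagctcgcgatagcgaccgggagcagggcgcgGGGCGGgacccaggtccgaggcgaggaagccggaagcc
HDAC6, chrX:48801817-48802066, plus strand: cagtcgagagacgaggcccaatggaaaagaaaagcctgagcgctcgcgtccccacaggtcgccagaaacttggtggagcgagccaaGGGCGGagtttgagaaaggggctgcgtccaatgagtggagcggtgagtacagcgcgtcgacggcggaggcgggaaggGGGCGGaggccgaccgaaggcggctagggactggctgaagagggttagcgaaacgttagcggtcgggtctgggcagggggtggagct
HDAC11, chr3:13480056-13480305, plus strand: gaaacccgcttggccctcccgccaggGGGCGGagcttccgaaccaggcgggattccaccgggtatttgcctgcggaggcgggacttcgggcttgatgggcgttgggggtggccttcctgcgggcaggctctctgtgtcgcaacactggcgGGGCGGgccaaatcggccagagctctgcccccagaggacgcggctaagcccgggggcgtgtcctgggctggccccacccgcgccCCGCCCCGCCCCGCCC
HDAC2, chr6:113971149-113971398, minus strand: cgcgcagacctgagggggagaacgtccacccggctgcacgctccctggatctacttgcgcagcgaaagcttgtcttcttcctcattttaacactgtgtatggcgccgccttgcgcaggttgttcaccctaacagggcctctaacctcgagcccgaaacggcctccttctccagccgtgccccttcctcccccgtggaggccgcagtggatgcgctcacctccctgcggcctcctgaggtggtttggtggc
There were 4 GC boxes in HDAC10, 2 in HDAC6, 5 in HDAC11 and 0 in HDAC2. HDAC1 had 3 and EP300 had 0, and 42.6% of 35116 promoters of the same length held at least 1. The CCAAT box (CCAAT on either strand) had 2 matches in HDAC6, 1 in HDAC10 and 1 in HDAC1, and was in 32.0% of promoters. Counts for HDAC6 depend on the start used: listed starts 2 and 3 had 1 and 3 GC boxes, and 0 and 2 CCAAT boxes. The cyclic AMP response element TGACGTCA was in none of the 6 genes, at their first listed starts, and in 1.6% of promoters.

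Besides the 6 deacetylases, the panel's Epigenetic Regulation set holds 10 genes, and none of these had an unadjusted limma p under 0.05. The share over all genes tested was 11.3%, and 10 genes are too few to tell their count from it. Of the 10, 7 were higher and 3 were lower in aCT1, with a median log2 fold change of 0.022 and values from -0.041 (SUV39H2, an H3K9 methyltransferase) to 0.13 (RPS6KA5, a histone kinase). The smallest p among them belonged to NASP, a histone chaperone, with 521 ± 14.9 and 549 ± 15.1 normalized counts (SD, n = 3) and a limma adjusted p of 0.464. Of 42 listed chromatin writers, readers and remodellers, 7 were in the table, 5 higher and 2 lower, with a median of 0.018. None had an unadjusted p under 0.05, and these 7 are likewise too few to set against the 11.3%. No sirtuin (class III) of the 7 listed was in the table.

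Transcription factors and corepressors that bring deacetylases to promoters were represented by 9 of 27 listed genes, of which 7 were tested. The median log2 fold change of the 7 was 0.0080, with 5 higher and 2 lower. Beside 11.3% of all genes tested, 1 of the 7 had an unadjusted limma p under 0.05. This was SNAI1, the Snail repressor, which recruits HDAC1 and HDAC2 to the E-cadherin promoter, with 234 ± 4.74 normalized counts in CTL and 258 ± 8.15 in aCT1 (SD, n = 3). It was 0.14 higher on the log2 scale, with a limma adjusted p of 0.325. Its spread within groups was 0.418 times its counting error. Counting error alone gives its log2 fold change a standard error of 0.075, larger than limma's 0.036. CDH1, which encodes E-cadherin, had 5869 ± 201 and 5835 ± 214 (SD, n = 3), with a limma adjusted p of 0.958.

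Genes known to rise when deacetylases are inhibited were split evenly by direction. Of 17 listed, 10 were tested, 5 were higher and 5 lower, with a median log2 fold change of -0.0024. At an unadjusted limma p under 0.05, 1 was higher and 1 was lower, beside 7.84% and 3.49% of all genes tested. CDKN2B, an inhibitor of CDK4 and CDK6, had 858 ± 37.0 normalized counts in CTL and 968 ± 12.7 in aCT1 (SD, n = 3), 0.17 higher on the log2 scale, and its limma adjusted p was 0.283. SFRP1, a secreted Wnt antagonist, had 6551 ± 324 and 5750.2 ± 130 (SD, n = 3), with a log2 difference of -0.19, and its limma adjusted p was 0.314. The adjusted p of SFRP1 was 0.0139 in limma with a variance trend, 0.0112 with edgeR and 6.0e-06 with DESeq2. CDKN2B had no adjusted p under 0.05 in any setting. CDKN1A, the p21 gene held down by HDAC1, had 106 ± 7.57 and 106 ± 1.88 normalized counts (SD, n = 3), and its limma adjusted p was 0.984.

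The tested genes whose log2 values followed each gene most closely over the 6 samples are given as a description, since 6 points in 2 groups share the treatment difference. For HDAC6 these were DSC2 (Pearson r = 0.965), CETN2 (0.964) and CDKN2B (0.954). For HDAC10 they were KRT7 (0.978), RAD51C (0.973) and TGFB2 (0.972), and for EP300 AURKB (0.985), PRKACB (0.960) and WEE1 (0.958). HDAC11 was followed most closely by PMS2 (0.972), EIF2AK3 (0.938) and COL9A3 (0.917). On deviations from the group means, which leave the treatment difference out, r was 0.677 to 0.766 for the HDAC6 genes, 0.674 to 0.876 for those of HDAC10, 0.867 to 0.936 for those of HDAC11 and 0.797 to 0.968 for those of EP300. The genes were picked on these same 6 samples, so high values are partly built in and are not independent evidence.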

How the data were processed

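JIMT-1 RNA from 3 CTL and 3 aCT1 samples was counted on the nCounter panel. In nSolver 4.0 the authors scaled counts by the panel's housekeeping genes, and the deposited table holds linear normalized counts (a signal) and log2 values. No background subtraction or positive-control scaling is given in the sources used here. Divided by 1 step per sample, 100% of the deposited linear values came out whole (tolerance 0.01), and these whole numbers are the recovered counts.

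The deposited log2 values were fitted with limma 3.58.1 in R 4.3.3 for the genes with statistics in the study, with Benjamini-Hochberg adjustment and a threshold of 0.05. The other 299 genes had means of at most 37.3 normalized counts. Alternatives were pseudocounts of 1 and 10, no moderation, a variance trend, quantile normalization, median centring, all 758 genes, a mean of at least 50, a background subtracted, the replicate number as a block, edgeR 4.0.16, DESeq2 1.42.0 and each sample left out. Genes and lists were chosen with earlier results of these data known. Named were all 7 genes, CREBBP, list genes with an unadjusted p under 0.05 or otherwise the smallest, the 3 most alike genes, and cell markers. Between replicates, chi-square per degree of freedom was 1.98 to 4.46, so no pair was within counting noise. The intervals given for differences between groups come from the limma fit and rest on its estimate of the spread between samples. They are not intervals of counting error.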

Additional observations from a re-analysis of the deposited data

How the results depend on the processing

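HDAC1, HDAC2, HDAC5 and HDAC10 kept their direction and their side of an unadjusted p of 0.05 under the 12 settings that kept all samples. None of the 7 genes had an adjusted p under 0.05 under any setting that gave one. DESeq2 gave an adjusted p to HDAC1 alone of the 7 and left the other 6 without. HDAC6 (log2 fold change 0.16) and EP300 (0.074) went over 0.05 with DESeq2. HDAC11 did so without moderation (0.23), with median centring (0.23), over all genes of the table (0.23) and with the replicate block (0.23), and EP300 over all genes (0.089) and with the replicate block (0.089). The number of the 7 genes under 0.05, 4, became 2 over all genes, 2 with the replicate block and 2 with DESeq2. Leaving out 1 sample gave 2 to 4 such genes, with 2 without CTL replicate 1, aCT1 replicate 1 or aCT1 replicate 2. Over these 6 fits the log2 fold change ranged from -0.042 to -0.012 for HDAC1, -0.034 to 0.012 for HDAC2, 0.091 to 0.24 for HDAC5, 0.14 to 0.20 for HDAC6, 0.17 to 0.22 for HDAC10, 0.16 to 0.30 for HDAC11 and 0.072 to 0.11 for EP300. The sign of HDAC2 turned without CTL replicate 2 (0.012), aCT1 replicate 1 (0.0080) or aCT1 replicate 2 (0.0093), that of CREBBP, from -0.081 to 0.056, without CTL replicate 1 (0.056), and that of HDAC1 over HDAC2, from -0.049 to 0.020, without aCT1 replicate 3 (0.020). The class difference of 0.20 ranged from 0.18 to 0.21 over settings and from 0.16 to 0.26 without 1 sample. Median centring, the choice of genes and the replicate block cannot change it. Its range over settings therefore rests on the pseudocounts, quantile normalization and background subtraction. Over all genes tested, 52 at an unadjusted p under 0.05 became 35 to 58 without 1 sample. The number with an adjusted p under 0.05, 0 in limma, was 1 with the variance trend and 1 with edgeR (SFRP1), 1 over all genes (CPA3) and 7 with DESeq2. With limma and edgeR none of these was a deacetylase or EP300. In edgeR there were 44 higher and 20 lower genes under an unadjusted p of 0.05. Same-numbered samples had deviations correlated at -0.014, 0.192 and -0.154. The labels do not say whether they were paired, and 3 such values cannot settle it. The causes of these changes were not tested. CPA3, KAT2B, SUV39H2, RPS6KA5 and CDKN1A were named after their values were seen.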
